A study of Mus musculus with 4 samples.

Results

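In 456 of 2364 places where a PLZF-transgenic peak and an NKT peak coincided, the NKT peak carried the equal or higher score, 19.3% of the shared sites. These 456 regions are described here. They were drawn from 5198 peaks of the PLZF-transgenic list and 4246 of the NKT list. A member is a PLZF-transgenic peak that overlaps an NKT peak by at least 1 bp and whose highest-scoring overlapping NKT peak scores at least as high, with mitochondrial DNA, the Y chromosome and chr11:3000000-3300000 left out (15 and 36 peaks). The members were thus chosen by the scores of both lists, and the scores below describe them with no test. Both ChIP libraries were made from C57BL/6 mouse thymocytes with transgenes for PLZF and for BirA, an enzyme that attaches biotin, so that biotin-tagged protein can be caught on streptavidin beads. The NKT library came from PLZF tg/BirA tg/Valpha14 tg mice, the other from PLZF tg/BirA tg mice. The labels name no promoter for these transgenes, no age of the mice and no sorting or pooling of cells, so NKT names the library and not a sorted cell type. A pull-down from mice that lack the PLZF transgene was not analysed here. Each group had 1 library, so differences between them have no replicate check, and the depth of both libraries is unknown.

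PLZF, the product of Zbtb16, is a transcription factor with a BTB domain at one end and DNA-binding zinc fingers at the other. The BTB domain recruits co-repressors and histone deacetylases. In the thymus PLZF is switched on in invariant natural killer T cells, whose T cell receptor uses a Valpha14 chain, and it gives them their innate-like effector character. Conventional thymocytes hardly express it, so the transgene places PLZF in cells that would mostly lack it.

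Some members lay at start sites of genes. Of these only, the ones with the highest NKT scores were taken, and the sequence before the start is shown for 6 starts. This lets a reader see what the pulled-down DNA holds. The sites stood at ranks from 1 (Gpr132) to 345 (Pmpcb) of the NKT list. Most of the 12 members with the highest NKT score did not overlap a promoter. Each line gives 250 bases before the annotated start, 5′ to 3′ on the strand of the gene, from RefSeq on GRCm38.p6 (mm10). Capitals mark matches to 1 of 12 short motifs on either strand: CCGGAAGT and CAGGAAG for ETS factors, TGTGGT for RUNX factors, CAGCTG and CAGGTG for E boxes, TGANTCA for AP-1, TGACGTCA for CREB factors, GGGCGG for GC boxes, CCAAT for the box of that name, AGATAA for GATA factors, CTTTGA for TCF and LEF factors and CCACACCC for KLF factors. No motif holds another within it. A match describes the letters and is not a bound site.
Gpr132: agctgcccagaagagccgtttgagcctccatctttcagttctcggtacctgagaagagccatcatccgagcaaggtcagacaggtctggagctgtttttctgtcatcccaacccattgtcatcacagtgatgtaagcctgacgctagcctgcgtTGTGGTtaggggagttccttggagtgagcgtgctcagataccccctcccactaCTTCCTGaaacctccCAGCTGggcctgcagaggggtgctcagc
Cltc: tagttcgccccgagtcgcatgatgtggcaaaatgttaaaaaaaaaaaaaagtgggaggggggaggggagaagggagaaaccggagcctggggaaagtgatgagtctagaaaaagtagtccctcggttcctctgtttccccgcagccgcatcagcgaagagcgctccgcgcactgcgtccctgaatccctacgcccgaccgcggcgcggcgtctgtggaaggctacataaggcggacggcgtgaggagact
Gm42085: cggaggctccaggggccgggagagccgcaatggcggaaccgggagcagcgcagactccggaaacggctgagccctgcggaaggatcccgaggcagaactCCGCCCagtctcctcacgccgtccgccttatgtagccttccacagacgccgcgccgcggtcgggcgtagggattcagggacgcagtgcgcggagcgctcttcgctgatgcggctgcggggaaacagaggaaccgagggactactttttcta
Kdm3a: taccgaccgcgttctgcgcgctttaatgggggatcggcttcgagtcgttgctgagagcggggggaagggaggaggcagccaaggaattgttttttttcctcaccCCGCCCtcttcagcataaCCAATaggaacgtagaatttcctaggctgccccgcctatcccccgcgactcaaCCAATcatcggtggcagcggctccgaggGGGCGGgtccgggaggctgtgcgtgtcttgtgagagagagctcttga
Cenpu: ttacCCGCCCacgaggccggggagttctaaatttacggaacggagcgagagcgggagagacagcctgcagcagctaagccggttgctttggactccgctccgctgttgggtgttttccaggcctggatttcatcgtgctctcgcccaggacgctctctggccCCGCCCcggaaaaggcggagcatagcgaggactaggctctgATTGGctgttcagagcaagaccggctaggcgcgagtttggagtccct
Pmpcb: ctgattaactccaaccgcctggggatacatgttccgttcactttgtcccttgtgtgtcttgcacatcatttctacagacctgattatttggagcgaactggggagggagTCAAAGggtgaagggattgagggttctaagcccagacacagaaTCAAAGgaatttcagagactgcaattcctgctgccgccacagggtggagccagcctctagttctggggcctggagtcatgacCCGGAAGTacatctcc

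The Gpr132 stretch (chr12:112860917-112861166, minus strand) held an ETS match, a RUNX match and an E box match within 96 bases of the start. It lay under an NKT peak of score 2773, and the second NKT peak of that site, which has the score of 3104, does not cover it. Gpr132 codes for a receptor on immune cells that signals through G proteins. Cltc (clathrin heavy chain, chr11:86757568-86757817, minus strand) and the noncoding gene Gm42085 (chr11:86757463-86757712, plus strand) start from one site in opposite directions, so their stretches overlap. None of the 12 motifs matched before Cltc, and 1 GC box matched before Gm42085. The stretch of Kdm3a, a histone demethylase gene (chr6:71632918-71633167, minus strand), held 2 GC boxes and 2 CCAAT boxes. That of Cenpu, a centromere protein gene (chr8:46551819-46552068, plus strand), held 2 GC boxes and 1 CCAAT box. Before Pmpcb, which encodes a subunit of the mitochondrial processing peptidase (chr5:21736910-21737159, plus strand), the ETS motif CCGGAAGT ended 9 bases from the start, and CTTTGA matched at a pair of places. All 250 bases lay under NKT peaks in each of these 6 stretches. In the PLZF-transgenic list 162 bases of the Kdm3a stretch and 248 of the Pmpcb stretch lay under the peak.

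Of the members, 54 overlapped at least 1 promoter window, which runs from 250 bases before to 50 bases after a start (11.8%, exact 95% interval 9.02 to 15.2%), and so did 238 of the 1908 other shared sites (12.5%, 11.02 to 14.0%). These intervals, like all below, cover counting error only. The members touched 69 windows of 64 genes. Their upstream bases had a median GC content of 58.8%, against 54.4% in 303 windows that only other shared sites touched and 52.4% in all 32817 windows. The median number of CG dinucleotides was 15, 12 and 6. The ETS motif CCGGAAGT was present in 9 of 69 member windows (13.0%, 6.14 to 23.3%), in 31 of 303 windows of other shared sites (10.2%, 7.06 to 14.2%) and in 2.88% of all windows. CAGGAAG was present in 18.8%, 17.2% and 10.8%. TGTGGT was in 13.0% of member windows, 15.2% of the windows of other shared sites and 14.0% of all windows. The widest gap between members and other shared sites as a ratio was that of CCACACCC, with 7 of 69 (10.1%, 4.18 to 19.8%) against 7 of 303 (2.31%, 0.934 to 4.70%), and 3.19% of all windows held it. CCAAT was in 34.8% of member windows (23.7 to 47.2%), in 22.8% of the windows of other shared sites (18.2 to 27.9%) and in 33.8% of all windows. These were 2 of 12 motifs looked at, they were singled out after their values were seen, and no difference between the sets was tested. Some windows overlap, as at Cltc and Gm42085, so 1 match can count in more than 1 window. The motif intervals treat windows as independent.

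The score is the value that the authors deposited with each peak. What it measures is not stated, it depends on depth, and it serves here to rank sites. Over the members the PLZF-transgenic score had a median of 86.0 (quartiles 63.5 to 133, lowest 50.03, highest 3100) and the NKT score a median of 130.4 (92.8 to 198, lowest 51.7, highest 3104). Over the other shared sites the medians were 219 and 104. The score of a typical member was thus low in the PLZF-transgenic list, at a median rank percentile of 35.4, and high in the NKT list, at 76.3. The NKT score was above the PLZF-transgenic one by a median ratio of 1.28 (quartiles 1.11 to 1.60). At least 2-fold higher were 59 members (12.9%) and at least 3-fold 10 (2.19%). Equal scores did not occur.

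**Figure D1:**
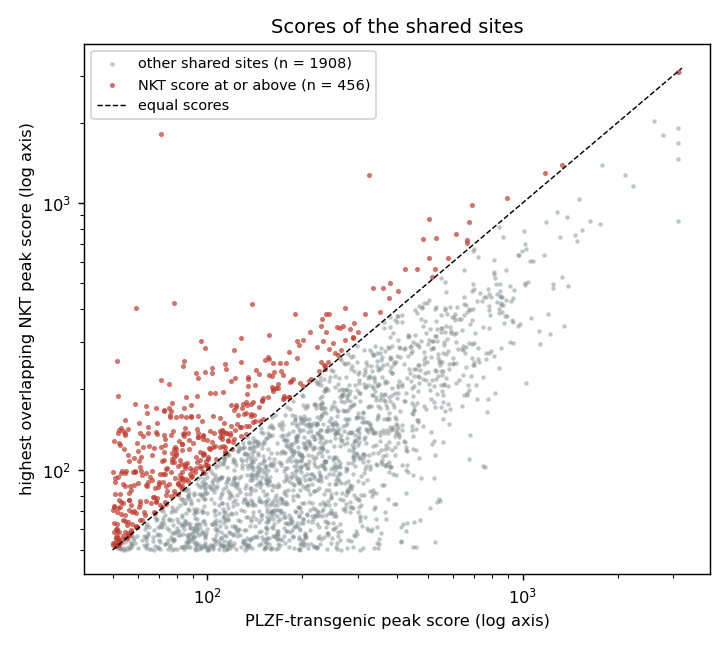
Each point is a shared site, with its PLZF-transgenic score on the horizontal and the highest overlapping NKT score on the vertical axis, both logarithmic; the dashed line marks equal scores. The 456 members lie above the line and most of them sit at low PLZF-transgenic scores, with a median of 86.0, while the 1908 other shared sites lie below it.

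Closest to the line on the inside were the Gpr132 site (3104 in NKT and 3100 in the PLZF-transgenic list), a site inside Smim5 (96.9 and 96.8) and a site 7.10 kb from E2f1 (119.6 and 119.4). Just outside were sites near Crygn (52.05 and 52.06), in Zfp62 (52.46 and 52.49) and in Gfpt1 (263.1 and 263.4). Sites on both sides of the line differed there by less than 1 score unit except at Gpr132.

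Membership became rarer as the PLZF-transgenic score rose. Up to a score of 75, 169 of 246 shared sites were members (68.7%, 62.5 to 74.4%). Between 100 and 150, 89 of 401 were (22.2%, 18.2 to 26.6%), and between 300 and 500, 11 of 375 (2.93%, 1.47 to 5.19%). Above 500 there were 15 members among 270 shared sites (5.56%, 3.14 to 8.998%). Neither list holds a score below 50, so a shared site at the bottom of the PLZF-transgenic list could hardly score lower in NKT, and this decline is in part built into the rule. When each score was replaced by its rank percentile in its own list, all 456 stayed members and 613 other shared sites joined them, 45.2% of the shared sites in all. Near-equal scores stood higher in the NKT list. At the Gfpt1 site 263.1 was at percentile 92.7 there, and 263.4 was at 83.5 in the PLZF-transgenic list. Such a shift keeps members in, so their staying is no check of membership.

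**Figure D2:**
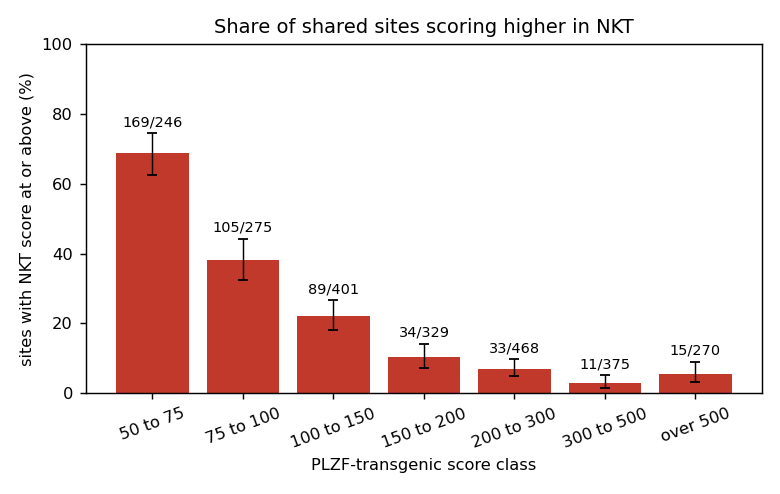
Bars give the percentage of shared sites whose NKT score was at or above the PLZF-transgenic score in 7 classes of the PLZF-transgenic score, with exact 95% intervals and the counts above. The share falls from 68.7% in the lowest class to 2.93% between 300 and 500.

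An NKT score of at least 500 was found at 20 members. The highest was the site at Gpr132 on chromosome 12 (112860657 to 112862455), 1799 bp wide, where a pair of NKT peaks lay. Its NKT score of 3104 was the highest in that list. Its PLZF-transgenic score of exactly 3100 was shared by 3 other peaks of that list, and 2 peaks scored above it. In the NKT list 1 peak also scored exactly 3100. With several peaks at the same value, the order of sites near this score is uncertain, and so is the membership of the Gpr132 site. On chromosome 7 a site 2.51 kb from Med29, a gene of the Mediator complex (28382060 to 28383409), had scores of 1381 in NKT and 1331 in the PLZF-transgenic list. On chromosome 13 a site 36.3 kb upstream of Il6st (112427285 to 112428204) had 1293 in NKT and 1179.7 in the PLZF-transgenic list. Il6st encodes gp130, the signalling chain shared by receptors of the interleukin 6 family. These sites stood high in both lists, the latter pair at ranks 24 and 33 of the PLZF-transgenic and 12 and 14 of the NKT list.

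Larger gaps in score were found at other strong members. The site inside Gse1, which encodes a subunit of co-repressor complexes (chromosome 8, 120284969 to 120285731), scored 1043 in NKT and 888 in the PLZF-transgenic list. Inside Fstl1, which encodes a secreted glycoprotein (chromosome 16, 37814305 to 37814947), the scores were 984 and 689. Inside the zinc finger gene Zfp607b (chromosome 7, 27688847 to 27689638) they were 873 and 506, a ratio of 1.72. The order of NKT first holds here and in all score pairs below. Inside Hdac7, a histone deacetylase gene of thymocytes (chromosome 15, 97836300 to 97837276), the scores were 845 and 674. A site 10.6 kb from Rph3al on chromosome 11 had 765 and 615. A site 0.479 kb beyond Myrip on chromosome 9 had 736 and 529. A site inside Uggt2, within 1 kb of its boundary, on chromosome 14 had 735 and 482. Each of these 7 sites was called once in each list, and the Myrip and Uggt2 sites had another shared site within 1 kb.

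The highest ratio, 25.4, belonged to a site on chromosome 17 (39845831 to 39847061) with scores of 1809 and 71.3. It overlapped Rn18s-rs5, annotated as a pseudogene, whose name refers to 18S ribosomal RNA. The next site on that chromosome (39847149 to 39848870) overlapped the same pseudogene and scored 1274 and 326, a ratio of 3.91. The NKT peak over the former was 3882 bp wide, the widest NKT peak of any member. Both sites fall within stretches taken to be rich in repeats, as does 1 more member, against 0 of the 1908 other shared sites. Without these 3 sites 453 members remained, with a median ratio of 1.28.

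Among members with an NKT score of at least 100, the next ratios were found at Gm572 on chromosome 4 (402 and 59.4, ratio 6.77), at Polr3b on chromosome 10 (422 and 78.1, ratio 5.41) and upstream of Runx3 on chromosome 4 (255 and 51.7, ratio 4.94). Polr3b encodes the second largest subunit of RNA polymerase III. At all of these places a single NKT peak lay across 2 neighbouring PLZF-transgenic peaks. At Polr3b the neighbour, 437 bp away between midpoints, scored 485 in the PLZF-transgenic list and was not a member. At Gm572 the neighbour scored 272 and was a member. The adjacent Runx3 site scored 84.3, which leaves a ratio of 3.03 for the better-scored one of the pair. Where 1 peak of each list met, a high ratio was found 2.145 kb from Nab2, a co-repressor of EGR factors (188 and 52.0, ratio 3.62). Another was 61.1 kb from Axin2, a target and inhibitor of Wnt signalling (303 and 95.7, ratio 3.17). The midpoints of these sites lay inside the noncoding genes 1700012D01Rik and Gm36876. Inside Etv3, an ETS family repressor gene, 1 peak of each list scored 217 and 71.0 (ratio 3.06). A site near the noncoding gene Gm27162, 172 kb from Ets1, scored 419 and 139 (ratio 3.02). The NKT peak behind that ratio also overlapped the PLZF-transgenic peak of the neighbour 968 bp away, which scored 783 and 1006 and was no member. Inside Cipc, a gene of a circadian clock repressor, the scores were 176 and 59.1 (ratio 2.98). A site inside the noncoding gene Gm40741, 17.5 kb from Cdk17, scored 245 and 83.5 (ratio 2.93).

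Close pairs of peaks were more frequent among members than among other shared sites. Another shared site lay within 1 kb for 59 of 456 (12.9%, 9.997 to 16.4%) and for 103 of 1908 other shared sites (5.40%, 4.43 to 6.51%). For 24 members (5.26%, 3.40 to 7.73%) the NKT peak also overlapped another PLZF-transgenic peak, against 19 of the other shared sites (0.996%, 0.601 to 1.55%). In 14 of those 24 the second PLZF-transgenic peak scored above the NKT peak. The rule gives the score of an NKT peak to every PLZF-transgenic peak that it overlaps. A weak PLZF-transgenic peak beside a strong one can thus become a member, so both contrasts are in part built into the rule. At Ccr7, a chemokine receptor gene chosen as an example after its values were seen, an NKT peak of 77.3 overlapped PLZF-transgenic peaks of 56.3 and 303. The 456 members rest on 451 NKT peaks. The reverse division, more than 1 NKT peak under a PLZF-transgenic peak, was found for 19 members (4.17%, 2.53 to 6.43%) and for 191 other shared sites (10.01%, 8.70 to 11.4%). Among sites with a PLZF-transgenic score under 150 these shares were 4.13% and 4.29%.

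Peak width, which the rule did not use, moved with membership. Width comes from the same peak calls as the score, so this contrast and that by ratio below are not independent of the rule. The PLZF-transgenic peaks of members were 331 bp wide at the median (quartiles 274 to 420 bp) and their NKT peaks 317 bp (254 to 429 bp). At other shared sites the medians were 544 bp and 290.5 bp. Of the pair, the PLZF-transgenic peak spanned more bases at 281 of 456 members (61.6%, 57.0 to 66.1%) and at 1856 of 1908 other shared sites (97.3%, 96.4 to 98.0%). Among sites with PLZF-transgenic scores under 150 the shares were 62.3% and 97.7%. NKT scores were not matched there, and 60.3% of those members and 13.8% of those other sites had an NKT score of at least 100. The NKT peak lay wholly inside the PLZF-transgenic one at 124 members (27.2%) and 1413 other shared sites (74.1%). The PLZF-transgenic peak lay inside the NKT one at 56 members (12.3%) and 17 other shared sites (0.891%). Midpoints lay a median of 46.8 bp apart at members and 60.5 bp at other shared sites.

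**Figure D3:**
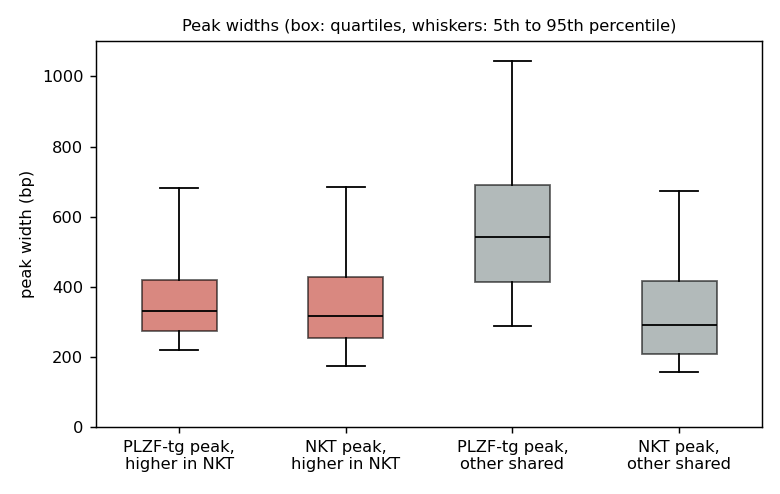
Boxes give the quartiles of peak width in bp, with the median as a line and whiskers from the 5th to the 95th percentile, for both peaks of each member (red) and of each other shared site (grey). At members the medians were 331 bp and 317 bp, while at other shared sites the median PLZF-transgenic peak spanned 544 bp.

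Within the members, the NKT peak was more often the wider one the higher its score stood above the PLZF-transgenic score. It was wider at 34 of 211 members with ratios below 1.25 (16.1%, 11.4 to 21.8%), at 39 of 104 between 1.25 and 1.5 (37.5%, 28.2 to 47.5%), at 51 of 82 between 1.5 and 2 (62.2%, 50.8 to 72.7%) and at 49 of 59 with ratios of at least 2 (83.1%, 71.0 to 91.6%). In the last class the median NKT peak was 407 bp wide and the median PLZF-transgenic peak 307 bp.

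Position relative to genes gave a smaller contrast. Within 1 kb of a gene boundary lay 133 members (29.2%, 25.03 to 33.6%) and 472 other shared sites (24.7%, 22.8 to 26.7%). Inside a gene and farther than 1 kb from a boundary lay 46.9% of members and 48.9% of other shared sites, and between genes 23.9% and 26.4%. Among sites with PLZF-transgenic scores under 150, the shares at boundaries were 29.5% and 29.5%. The interval of the members overlapped that of the other shared sites in each of these classes. Inside protein-coding genes lay 54.6% of members (49.9 to 59.2%) and 51.4% of other shared sites (49.1 to 53.6%). Farther than 100 kb from any protein-coding gene lay 22 members (4.82%) and 138 other shared sites (7.23%).

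**Figure D4:**
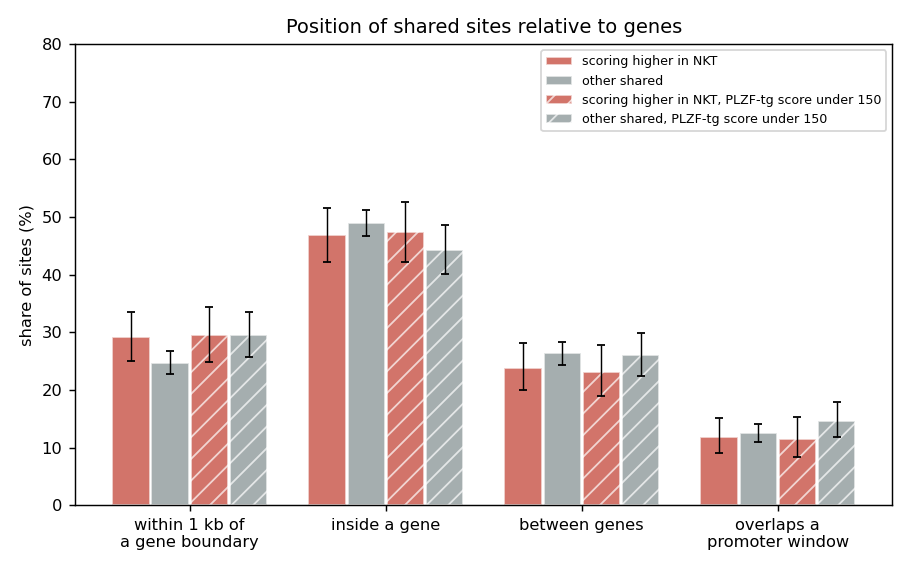
Bars give the percentage of sites in each position class, with exact 95% intervals, for members (red) and other shared sites (grey), over all sites (plain) and over those with a PLZF-transgenic score under 150 (hatched). At gene boundaries the shares were 29.2% and 24.7% over all sites and 29.5% in both sets at low scores.

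The member sites with the highest NKT scores within 1 kb of a protein-coding gene boundary, after Myrip and Uggt2, lay at the CD8 beta chain gene Cd8b1 (707 and 668), Cltc (526 and 515), Rgs14 (469 and 403), Polr3b, Kdm3a (391.5 and 352), the nuclear lamina gene Lmna (356 and 293), Cenpu (336 and 283), the ubiquitin ligase gene Neurl3 (275 and 182), Pmpcb (251 and 169.8) and the chromatin remodelling gene Arid1a (246 and 235). The Cltc, Kdm3a, Cenpu and Pmpcb sites overlapped promoter windows, as printed above.

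A protein-coding gene within 100 kb could be assigned to 434 members. At least 1 member was assigned to 404 of 1633 protein-coding genes that had any shared site, 24.7%, which is the background for the gene lists below. Of these genes, 376 had 1 member, 26 had 2 and 2 had 3. The genes with 3 were Pde4d, a cyclic AMP phosphodiesterase gene, and the predicted gene Gm6958. The Pde4d members scored 135 and 76.8, 134 and 96.6, and 93.6 and 88.4, and a stronger shared site in the same gene (811 and 841) was not a member. The 3 sites near Gm6958 lay side by side 12.1 to 13.2 kb from it on chromosome 16, and 2 of them shared an NKT peak of score 345.

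Another shared site that was no member was assigned to 139 of the 404 genes, and the other 265 genes had members only. At 123 of the 139 the other site with the highest PLZF-transgenic score exceeded the member in that score, a comparison that the rule largely fixes because it uses the same scores. Its NKT score exceeded that of the member at 60 of the 139. The member compared was the one with the highest NKT score in the gene, and an NKT peak under both sites counted as not exceeding. Both choices tilt this count to the member.

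Genes of T cell receptor signalling had a member at 9 of 33 genes with a shared site (27.3%, 13.3 to 45.5%), near the background of 24.7%. By site, 11 of their 71 shared sites were members (15.5%), against 19.3% overall. Cd8b1 had 2 members. The one 0.224 kb from the gene scored 707 and 668, the one 16.4 kb away 214 and 182, and the stronger of 2 further shared sites scored 362 and 529.96. Rasgrp1, an activator of Ras in thymocytes, had 1 member of 182 and 149, 56.6 kb upstream, beside 5 other shared sites of which the best scored 374 and 599. Sla, an adaptor that dampens receptor signalling, had 172 and 146. Cd247, the zeta chain gene, had 135 and 54.6 inside the gene. Each of these 4 genes also had at least 1 shared site with the higher score in the PLZF-transgenic list.

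Among genes for T lineage transcription factors, 12 of 31 had a member (38.7%, 21.9 to 57.8%), and the interval includes the background of 24.7%. By site, 15 of 68 were members (22.1%). Runx3, a factor of the CD8 and innate-like lineages, had 2 peaks in the PLZF-transgenic list, and both were members, 40.1 and 40.4 kb upstream, under an NKT peak of 255. Runx1, its relative active in early thymocytes, had a member of 166 and 76.7 among 11 PLZF-transgenic peaks, with a best other shared site of 241 and 356. Foxp1, a factor of T cell quiescence, had 2 members inside the gene, with scores of 241 and 104 and of 219 and 213. Irf1, an interferon response factor, had 166 and 72.8 at a distance of 6.10 kb upstream. Tox2, a relative of the thymic factor Tox, had 146 and 133 inside the gene. Zbtb16 itself, which encodes PLZF and whose sequence a PLZF transgene may carry, had 1 member inside the gene (124 and 52.7) beside 5 other shared sites, the best of which scored 463 and 572. At the other 6 genes the best member had an NKT score from 53.8 to 137.

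Cytokine receptor and JAK-STAT genes had a member at 6 of 17 (35.3%, 14.2 to 61.7%), by site 7 of 31 (22.6%). The member upstream of Il6st was 1 of 4 shared sites there, and the best of the others scored 480 and 1244. Il6ra, the receptor that pairs with gp130, had its only peak in each list as a member, inside the gene (171 and 128). Stat3, the factor downstream of both, had 181 and 149, beside another shared site of 212 and 302. Stat4, which carries interleukin 12 signals, had 139 and 54.0, and Stat5b, which carries interleukin 2 and interleukin 7 signals, had 2 members, the higher of 86.2 and 69.8.

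**Figure D5:**
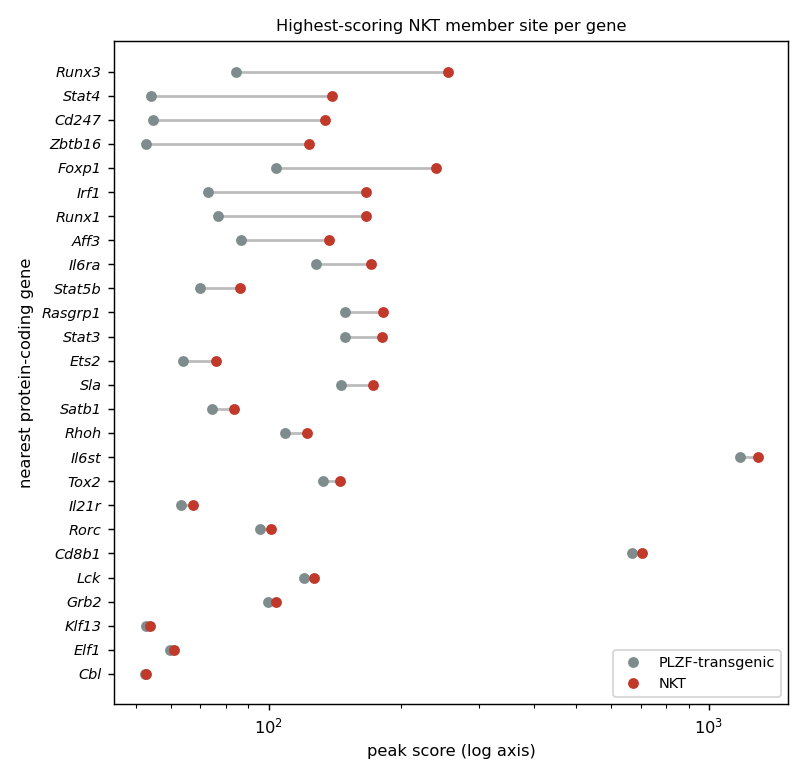
For 26 genes of the T cell receptor, T lineage factor and cytokine receptor lists with a member, the PLZF-transgenic score (grey) and the NKT score (red) of its highest-scoring member are joined by a line on a logarithmic axis, ordered by their ratio. The gap is widest at Runx3 (255 and 84.3), and at genes at the foot of the plot the scores nearly coincide.

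Migration and adhesion genes had a member at 7 of 28 (25%, 10.7 to 44.9%). Besides Gpr132 these included Rgs14, a regulator of G protein signalling (469 and 403, 0.069 kb from the gene), the LFA-1 integrin genes Itgal (196 and 112, 10.8 kb away) and Itgb2 (133 and 62.4, 0.086 kb away), and Rgs1 (177 and 129.8, 81.4 kb away). LFA-1 is the pair of the Itgal and Itgb2 products, and at Itgb2 the member was the only peak in each list.

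Genes of the innate-like T cell list, which holds natural killer T cell genes, had a shared site at 11 of 48 genes, and 2 of the 11 had a member (18.2%, 2.28 to 51.8%). These were Ltb, the lymphotoxin beta gene (170 and 84.4, 0.433 kb upstream, overlapping a promoter window), and Cd1d1 (87.5 and 58.5, inside the gene), which encodes the molecule that presents lipids to natural killer T cells. Of the NF-kB and TNF genes, 2 of 7 had a member. Cd27, a costimulatory receptor gene, had 2, the higher of 159 and 138, and Tnfaip3 had 118 and 114 at 79.0 kb, beside a shared site of 165 and 772.

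Co-repressor and chromatin genes had a member at 3 of 7, Hdac7, Arid1a and Satb1 (83.5 and 74.6, 46.1 kb away). Splicing factor genes had one at 5 of 14 (35.7%, 12.8 to 64.9%). Mbnl1 had 2 members inside the gene, the higher of 367 and 230.3, and Sf3a3 (244 and 236), Hnrnpf (187 and 155) and Ddx5 (88.3 and 70.0) had theirs 0.097 kb from the gene, 0.029 kb from it and inside it, each at a promoter window. Hnrnpll, which regulates splicing of Ptprc, had 203 and 168 at 46.6 kb. Among PI3K, mTOR and metabolism genes 3 of 10 had a member: Inpp5d, the SHIP1 phosphatase gene (204 and 160.2), the amino acid transporter gene Slc3a2 (188 and 85.6) and Txnip (67.6 and 54.9). Among MAP kinase and phosphatase genes 3 of 11 had one, among them Rps6ka1 (110.4 and 58.3, 5.95 kb away) and Dusp5 (86.5 and 82.0, 64.4 kb upstream). The site assigned to Dusp5 lay inside the noncoding gene Mirt1 and overlapped the promoter window of Mirt1. Among cell cycle genes 2 of 11 had one, the antiproliferative gene Btg2 (384 and 238, 7.49 kb away) and E2f1. Among ribosomal protein genes 1 of 11 had one, Rpl27 (187 and 181).

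No member was assigned to the 6 survival and apoptosis genes or the 8 V(D)J recombination and DNA repair genes with a shared site. The exact intervals, 0 to 45.9% and 0 to 36.9%, include the background of 24.7%. Shared sites were also counted at marker genes of other cells. Of all 21631 protein-coding genes, 1633 had an assigned shared site, and no list was tested against that share. Of 19 B cell genes 1 had a shared site and none a member. Of 27 myeloid and dendritic genes 2 had a shared site, and both had a member, Flt3 (149 and 113) and Itgam (139.2 and 112). Thymic stroma and erythroid genes had no shared site, and of 30 neuronal genes 1 had one, a member at Nrxn3 (78.7 and 67.6). Antigen presentation genes had 2, of which Cd1d1 held a member. Of the 6 loci whose sequence transgenes of this kind may carry, 5 had a shared site and 2 a member, Zbtb16 and Lck (127 and 120.5, 0.073 kb upstream at a promoter window), the kinase gene whose promoter often drives thymic transgenes. Whether transgene DNA adds to these scores was not tested.

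Members tended to lie next to members. Where another shared site lay within 5 kb, the nearest one was a member for 33 of 97 members (34.0%, 24.7 to 44.3%) and for 63 of 328 other shared sites (19.2%, 15.1 to 23.9%), against 19.3% of all shared sites. With each NKT peak used once the shares were 31.6% and 16.0%. No chance level was computed for this difference.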

How the data were processed

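Streptavidin ChIP peaks of 2 mouse thymocyte libraries were analysed; the 2 input libraries were not used here. The authors deposited 1 peak list per library with a score per peak (lowest 50.03 and 50.02, unit not stated). Bowtie, Picard, HOMER and mm10 are named in the submitters' processing notes; peak names in the files begin with MACS. Versions, control and pooling: not given in the sources used here. The depth is unknown. Starts were raised by 1 base. Overlaps were computed with Python 3.11.15, NumPy 2.4.6 and pandas 2.3.3 and tested on simulated peaks. Each site was assigned by its midpoint to the nearest of 21631 protein-coding genes (GRCm38.p6, no exons) within 100 kb; for a midpoint in several, the closest boundary decided. Distances are to the gene. Upstream distances use the start sites of 32817 RefSeq promoter windows. Intervals are exact (Clopper-Pearson, SciPy 1.17.1) at 95%. There is 1 library per group, so no test was made.

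The members and the 21 gene lists were chosen with earlier results of these data known. Sites were named by rule: the 12 with the highest NKT score, the 12 with the highest ratio at NKT scores of at least 100, the 12 best at protein-coding boundaries, the 3 nearest to equal scores on each side, the 3 widest, up to 5 genes per list by NKT score, and genes with 3 or more members. Some genes that the rule names are not reported here. Motifs were chosen after the files were seen. Alternatives were 50% overlap of both peaks, rank percentiles, the longest overlap, scores of at least 100 in both lists, 1 to 1 overlaps, strictly higher scores, omission of presumed repeat-rich regions, a 2.5 kb window, protein-coding boundaries, a 10 kb limit and gene bodies.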

Additional observations from a re-analysis of the deposited data

How the results depend on the processing

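Of 50 values recomputed under other settings, 38 stayed within the exact 95% interval of the share or median, or within 1.5 times the count. The 38 include the values under strictly higher scores, which could not change because equal scores did not occur. With rank percentiles in place of scores, members numbered 1069 (45.2% of the shared sites), their median score ratio was 0.94, the PLZF-transgenic peak was wider at 79.2% and 863 genes had a member. With scores of at least 100 in both lists, 182 sites (15.3%) were members, with a median ratio of 1.22 and 165 genes; fewer sites enter there by construction. With 50% overlap of both peaks 25.9% of shared sites were members. The share of members at gene boundaries was 42.3% with a 2.5 kb window and 20.2% with protein-coding boundaries only. How much of the gap in score between the lists comes from depth was not tested. The value restricted to PLZF-transgenic scores under 150 and the use of each NKT peak once were chosen after seeing the data. No paired analysis was possible because each group has 1 library and no result comes from a test.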

Other observations

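Members lay on all 19 autosomes. The share of shared sites that were members ranged over the autosomes from 14.5% on chromosome 2 (26 of 179, exact 95% interval 9.71 to 20.6%) to 27.0% on chromosome 7 (41 of 152, 20.1 to 34.8%). On the X chromosome 0 of 13 shared sites were members (0 to 24.7%).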
